A study of Mus musculus with 35 samples.

Results

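Peroxisomal oxidation and biogenesis is represented here by a list of 45 genes, of which 44 had a probeset on the array and 40 were expressed in at least 1 of 8 groups of mice. The list holds 13 enzymes of peroxisomal fatty acid oxidation, 13 Pex genes that build the organelle, and genes of its membrane, of acyl and CoA export, of other matrix enzymes and of ether lipid synthesis. A gene was taken as expressed when the mean of a probeset exceeded 5 on the log2 scale, a level of 32, in 1 or more groups, which 59 of the 88 probesets of the list did, against 15384 of 45037 probesets on the whole array. Each expressed gene is given by its probeset of highest mean, and 8626 genes of the whole series entered the comparisons in this way. Abcd2, Pxmp2, Acox3 and Pex10 stayed under the level, and no expression value of Paox was analysed here. Of the 40 expressed members 36 exceeded the level in all 8 groups. Acox2 did so in 4 groups, Decr2 in 3, Hacl1 in 2 and Amacr in 1, so that these 4 genes entered only through the groups in which they were high.

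Peroxisomes are single-membrane organelles that shorten very long-chain, branched and dicarboxylic fatty acids, as well as bile acid intermediates, by β-oxidation. In this pathway an acyl-CoA oxidase makes the first double bond and hydrogen peroxide, a bifunctional enzyme hydrates and dehydrogenates, and a thiolase releases acetyl-CoA, after which the shortened chain leaves for the mitochondria. The nuclear receptor PPARα, which is activated by fatty acids and by synthetic agonists such as WY14643, is known from rodent liver to raise many of these genes, and Pex proteins import the enzymes and divide the organelle.

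The study asked which intestinal genes respond to acute activation of PPARα by dietary fatty acids. PPARα-null mice (129S4/SvJae) and wild-type mice (129S1/SvImJ), males of 4 months, received 1 gavage of 400 µl after a fast of 4 h and were killed 6 h later, having eaten a modified AIN76A diet with olive oil for 2 weeks. The agonists were WY14643, given as a 0.1% suspension in 0.5% carboxymethyl cellulose, or synthetic triacylglycerols that release EPA (trieicosapentaenoin), DHA (tridocosahexaenoin) or OA (triolein) on digestion. Each of 35 Affymetrix Mouse Genome arrays (type 430-2.0) took RNA from the whole length of the small intestine of 1 mouse. PPARα-null mice numbered 4 after WY14643, 5 after EPA, 4 after DHA and 4 after OA, and wild-type mice 4 after WY14643, 5 after EPA, 5 after DHA and 4 after OA. The 2 genotypes were different substrains, so that genotype and substrain cannot be told apart, and WY14643 came without a lipid load, so that agonist and load cannot be told apart where WY14643 is set against a triacylglycerol. No mice without an agonist were analysed here. In such whole tissue, fewer cells of a type and less RNA per cell cannot be told apart either.

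The data of 3 libraries went against their genotype labels: the library labelled PPARα-null EPA replicate 5, the library labelled PPARα-null OA replicate 1 and the library labelled wild-type EPA replicate 5. A probeset of Cyp4a10, a fatty acid hydroxylase that PPARα controls, lay between 1.36 and 2.50 (log2) in the other 15 PPARα-null arrays and between 8.15 and 12.7 in the other 17 wild-type arrays, yet read 9.91 and 10.6 in the libraries labelled PPARα-null EPA 5 and OA 1 and 1.81 in that labelled wild-type EPA 5. All arrays were kept under their labels, and for the members given array by array the genotype differences after EPA and OA are given with and without these 3 arrays. Values after EPA and OA with all arrays rest on these labels, and whether labels were exchanged was not tested. A probeset of Ppara, the gene of PPARα itself, did not exceed 6.56 in the other PPARα-null arrays. It read 7.83 and 7.27 in the libraries labelled PPARα-null EPA 5 and OA 1. In the library labelled wild-type EPA 5 it read 4.82, under every other wild-type array. The remaining arrays of both genotypes overlapped for this probeset. The 3 arrays also read like the other genotype for Acaa1b and Pxmp4. Genotype differences without them are therefore not independent of that choice for these genes or for others that PPARα controls. The arrays were otherwise alike, with 31.6% to 32.4% of probesets above the level. Enterocyte markers were high in every array, Alpi between 12.8 and 13.2 and Fabp2 between 13.8 and 14.2. Of 5 enterocyte markers only Fabp2 was called, lower in PPARα-null mice after WY14643 (-0.24) and DHA (-0.14), and of 4 enteroendocrine markers Chga and Gip were higher after WY14643 (0.49 and 0.35), when the summed level of the 4 was 12.5 to 12.8 in PPARα-null mice and 12.1 to 12.5 in wild-type mice. The summed level of 3 pancreatic acinar genes, whose tissue was removed at dissection, ranged from 4.28 to 15.2 across arrays and after WY14643 from 8.65 to 11.8 in PPARα-null mice and 11.1 to 13.6 in wild-type mice, without a called difference. Of 3 hepatocyte genes Alb and Apoh did not exceed 4.38 in any array and Ttr lay between 6.80 and 8.46, and their summed level after WY14643 was 8.19 to 8.54 in PPARα-null mice and 7.53 to 8.11 in wild-type mice, without a called difference (1 gene at an unadjusted p under 0.05). The fat gene Adipoq ranged from 1.62 to 5.69, Lep did not exceed 2.05 and the red cell gene Alas2 did not exceed 2.76. The part of these markers in the results below was not tested.

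More members were called between genotypes after WY14643 than after the other agonists. With limma over all expressed probesets and an adjusted p under 0.05 as the call, 20 of the 40 expressed members differed between PPARα-null and wild-type mice, 19 of them lower and 1 higher in PPARα-null mice, where 6.68% of all 8626 genes were called, 3.76% as lower and 2.92% as higher. After DHA 8 members were called, 7 of them lower and 1 higher, against 6.65% of all genes, 3.7% as lower and 2.96% as higher, and without PPARα-null DHA replicate 3 the count was 4. With all arrays under their labels, none was called after EPA (0% of all genes; 4 members at an unadjusted p under 0.05) or after OA (0.417% of all genes; 6 members at that p). With the 3 doubted arrays left out, 9 members were lower after EPA (1.69% of all genes called, 1.31% as lower) and 5 after OA (1.47% and 1.15%), while 23 were called after WY14643 (7.59%) and 8 after DHA (8.07%). Among the 36 members above the level in every group, 18 were called after WY14643, against 6.67% of the 7861 genes that passed the same condition. The 8 genes called after both WY14643 and DHA were Abcd3, Pxmp4, Hsd17b4, Acaa1b, Ech1, Crot, Pipox and Pex11a. No member was called after DHA alone, although no test compares these lists. Abcd3, Pxmp4, Hsd17b4, Acaa1b and Ech1 were lower after all 4 agonists once the 3 arrays were left out. Those arrays stand out by genes of this kind, Acaa1b and Pxmp4 among them, so this result is not independent of leaving them out.

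**Figure D1:**
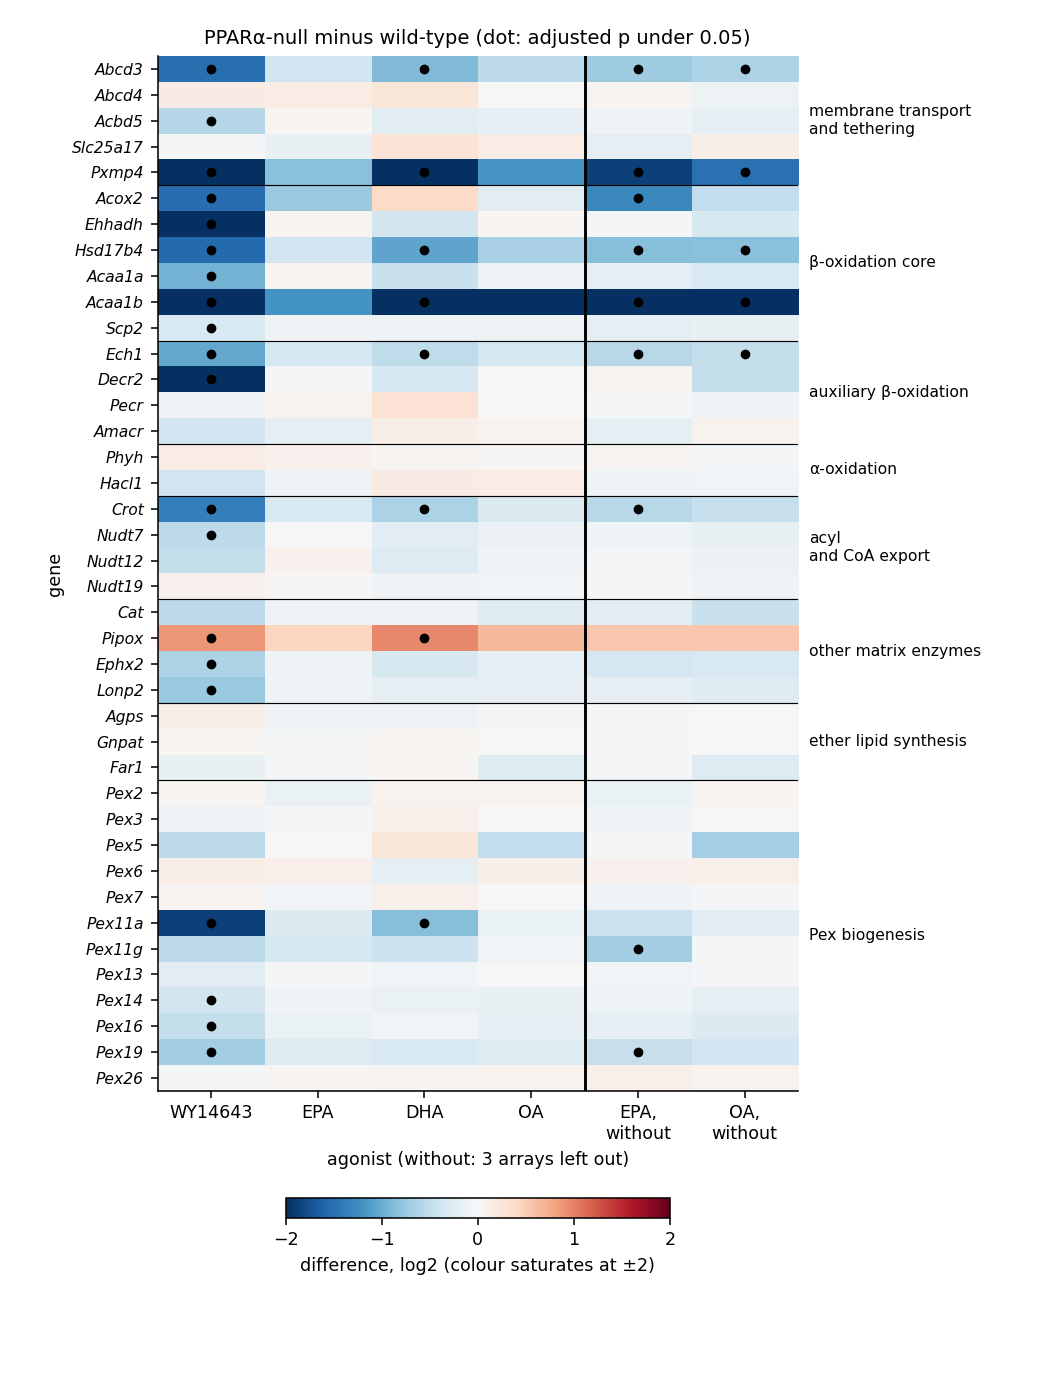
Differences in log2 signal, PPARα-null minus wild-type, for the 40 expressed members (rows, by role) after each agonist (columns), with EPA and OA repeated without the 3 arrays that go against their labels. Blue is lower in PPARα-null mice, dots mark an adjusted p under 0.05, and 20 of them stand in the WY14643 column, 8 in the DHA column and none in the EPA and OA columns with all arrays.

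The promoters of 4 genes are shown as examples. Acaa1b and Pxmp4 had the largest genotype differences of the list, and Acaa1a is the close paralog of Acaa1b with a smaller difference. Ehhadh, like Acaa1a, is among the 12 members called between genotypes after WY14643 and, with all arrays, after no lipid. The sequences are the 250 bases before the RefSeq start on GRCm38.p6, 5′ to 3′ on the strand of the gene, with CG dinucleotides in capitals. They come from chr9:119157094-119157343 (minus strand) for Acaa1b, chr9:119341044-119341293 (plus strand) for Acaa1a, chr16:21787835-21788084 (minus strand) for Ehhadh and chr2:154603674-154603923 (minus strand) for Pxmp4.
Acaa1b: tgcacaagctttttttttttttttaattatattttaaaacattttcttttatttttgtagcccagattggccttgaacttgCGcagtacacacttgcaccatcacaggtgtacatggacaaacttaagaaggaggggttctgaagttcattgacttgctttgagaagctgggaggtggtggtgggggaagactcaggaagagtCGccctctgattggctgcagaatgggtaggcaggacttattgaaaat
Acaa1a: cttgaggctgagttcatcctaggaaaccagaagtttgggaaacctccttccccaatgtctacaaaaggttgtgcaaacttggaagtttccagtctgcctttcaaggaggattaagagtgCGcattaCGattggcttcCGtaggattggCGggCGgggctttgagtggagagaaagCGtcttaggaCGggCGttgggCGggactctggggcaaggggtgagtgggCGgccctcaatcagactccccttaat
Ehhadh: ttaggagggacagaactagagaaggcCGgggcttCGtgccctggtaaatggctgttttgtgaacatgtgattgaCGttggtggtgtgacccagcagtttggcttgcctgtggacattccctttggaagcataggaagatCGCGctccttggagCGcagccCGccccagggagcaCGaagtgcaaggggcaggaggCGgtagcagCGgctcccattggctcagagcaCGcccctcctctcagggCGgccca
Pxmp4: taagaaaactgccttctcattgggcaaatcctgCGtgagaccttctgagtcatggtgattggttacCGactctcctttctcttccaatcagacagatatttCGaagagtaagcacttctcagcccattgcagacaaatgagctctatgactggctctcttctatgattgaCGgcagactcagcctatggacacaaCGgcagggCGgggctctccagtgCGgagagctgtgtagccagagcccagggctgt
The Acaa1b promoter held 2 CG dinucleotides and that of Acaa1a 10, with 12 for Ehhadh and 7 for Pxmp4, against a median of 14 over the 36 members with a promoter in the RefSeq table and 6 over all 27025 genes. PPARα is known to bind a direct repeat of AGGTCA with 1 base between the copies. On either strand, neither the full repeat (AGGTCA, then N, then AGGTCA) nor a looser one that contains it (AGGNCA, then N, then AGGNCA) occurred in these windows of any of the 36 members, against 0.0407% and 0.4% of all genes. The single copy AGGTCA, which also counts wherever the full repeat is found, occurred in 3 of 36 members (8.33%; Scp2, Cat and Pex11g), against 15.8% of all genes. These are matches of letters in short windows and say nothing of sites elsewhere.

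Of the genes of the peroxisomal membrane, 3 of 5 expressed members were lower in PPARα-null mice after WY14643. Pxmp4 encodes a small integral membrane protein of peroxisomes whose role is less well understood. Its log2 signal after WY14643 was 5.77, 5.59, 6.10 and 6.18 in PPARα-null mice, against 9.16, 9.50, 9.60 and 8.91 in wild-type mice. DHA arrays read 4.96, 5.11, 5.37 and 5.46 in PPARα-null mice, against 7.73, 7.94, 7.75, 7.12 and 7.46 in wild-type mice. Neither pair of groups overlapped, and the differences were -3.38 ± 0.48 (SE; 10.4-fold lower, adjusted p = 1.05e-05) and -2.38 ± 0.46 (5.20-fold lower, adjusted p = 0.00265). After EPA Pxmp4 was at 5.17, 5.80, 5.08, 4.49 and 7.78 in PPARα-null mice, against 7.27, 6.87, 7.12, 6.74 and 4.50 in wild-type mice. After OA it was at 7.48, 5.89, 6.40 and 6.38 in PPARα-null mice, against 7.75, 7.43, 7.99 and 7.69 in wild-type mice. In both lipid groups the overlap came from the libraries that go against their labels: the EPA difference was -0.83 (adjusted p = 0.579) with all arrays and -1.86 (adjusted p = 2.05e-06) without them, and the OA difference was -1.18 (adjusted p = 0.329) and -1.49 (adjusted p = 3.70e-04). A second probeset of Pxmp4 fell by 2.98 after WY14643 and by 1.82 after DHA.

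Abcd3, the half-transporter PMP70 that carries acyl-CoAs and bile acid intermediates into the organelle, moved less in fold but with a narrow spread. Its signal after WY14643 was 11.54, 11.51, 11.69 and 11.74 in PPARα-null mice, against 13.18, 13.23, 13.28 and 12.83 in wild-type mice. DHA arrays gave 11.63, 11.88, 11.60 and 11.78 in PPARα-null mice, against 12.54, 12.63, 12.67, 12.64 and 12.54 in wild-type mice. The groups were apart after both agonists, by -1.51 ± 0.16 (adjusted p = 5.35e-08) and -0.88 ± 0.15 (adjusted p = 9.95e-04). EPA arrays gave 11.74, 11.61, 11.68, 11.64 and 12.54 in PPARα-null mice, against 12.38, 12.48, 12.34, 12.33 and 11.64 in wild-type mice. OA arrays gave 12.34, 11.98, 11.81 and 11.95 in PPARα-null mice, against 12.56, 12.43, 12.56 and 12.60 in wild-type mice. The EPA groups overlapped through replicate 5 of each genotype and the OA groups did not overlap, and neither difference passed with all arrays (-0.39, adjusted p = 0.428; -0.52, adjusted p = 0.143), whereas both did without the 3 arrays (-0.71, adjusted p = 5.38e-07; -0.63, adjusted p = 2.79e-05).

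Acbd5, an acyl-CoA binding protein that tethers peroxisomes to the endoplasmic reticulum, was called between genotypes after WY14643 alone, at 10.61, 10.65, 10.56 and 10.40 in PPARα-null mice, against 11.17, 11.34, 11.22 and 10.78 in wild-type mice (difference -0.57 ± 0.12, adjusted p = 0.00158). Its EPA arrays read 10.03, 10.43, 10.38, 10.14 and 10.36 in PPARα-null mice, against 10.14, 10.52, 10.23, 10.35 and 9.92 in wild-type mice. Its DHA arrays read 10.08, 10.13, 10.49 and 10.07 in PPARα-null mice, against 10.42, 10.38, 10.37, 10.54 and 10.38 in wild-type mice. Its OA arrays read 10.24, 10.13, 10.01 and 10.28 in PPARα-null mice, against 10.47, 10.28, 10.40 and 10.14 in wild-type mice. In these 3 pairs the genotypes overlapped, with differences of 0.04, -0.23 and -0.16, and without the 3 arrays they were -0.06 after EPA and -0.18 after OA. Abcd4, an ABC protein grouped here by family, and Slc25a17, a carrier of CoA and related cofactors, were not called after any agonist, with differences between -0.15 and 0.28.

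All 6 expressed genes of the β-oxidation core were lower in PPARα-null mice after WY14643, with a median difference of -1.54. Acaa1b, a peroxisomal thiolase that rodents carry beside Acaa1a, had the largest difference of the whole list. After WY14643 its signal was 9.12, 9.02, 9.58 and 9.73 in PPARα-null mice, against 13.50, 13.68, 13.74 and 13.02 in wild-type mice. After DHA it was 7.57, 8.32, 8.88 and 7.56 in PPARα-null mice, against 11.32, 11.72, 11.50, 10.89 and 11.15 in wild-type mice. Means were 9.36 ± 0.34 in PPARα-null mice and 13.48 ± 0.33 in wild-type mice after WY14643 (SD, n = 4 each), 17.4-fold lower in PPARα-null mice (-4.12 ± 0.67, adjusted p = 7.35e-05), and after DHA the gene was 9.40-fold lower (-3.23 ± 0.64, adjusted p = 0.00311). The EPA arrays read 7.76, 8.32, 8.26, 8.07 and 11.49 in PPARα-null mice, against 10.52, 10.82, 10.48, 10.25 and 7.81 in wild-type mice. The OA arrays read 12.06, 8.17, 8.38 and 9.46 in PPARα-null mice, against 11.86, 11.02, 11.92 and 11.55 in wild-type mice. A single library in 3 of these 4 groups lay with the other genotype: the EPA difference was -1.20 (adjusted p = 0.571) with all arrays and -2.42 (adjusted p = 1.29e-06) without the 3, and the OA difference was -2.07 (adjusted p = 0.181) and -2.92 (adjusted p = 3.57e-07).

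**Figure D2:**
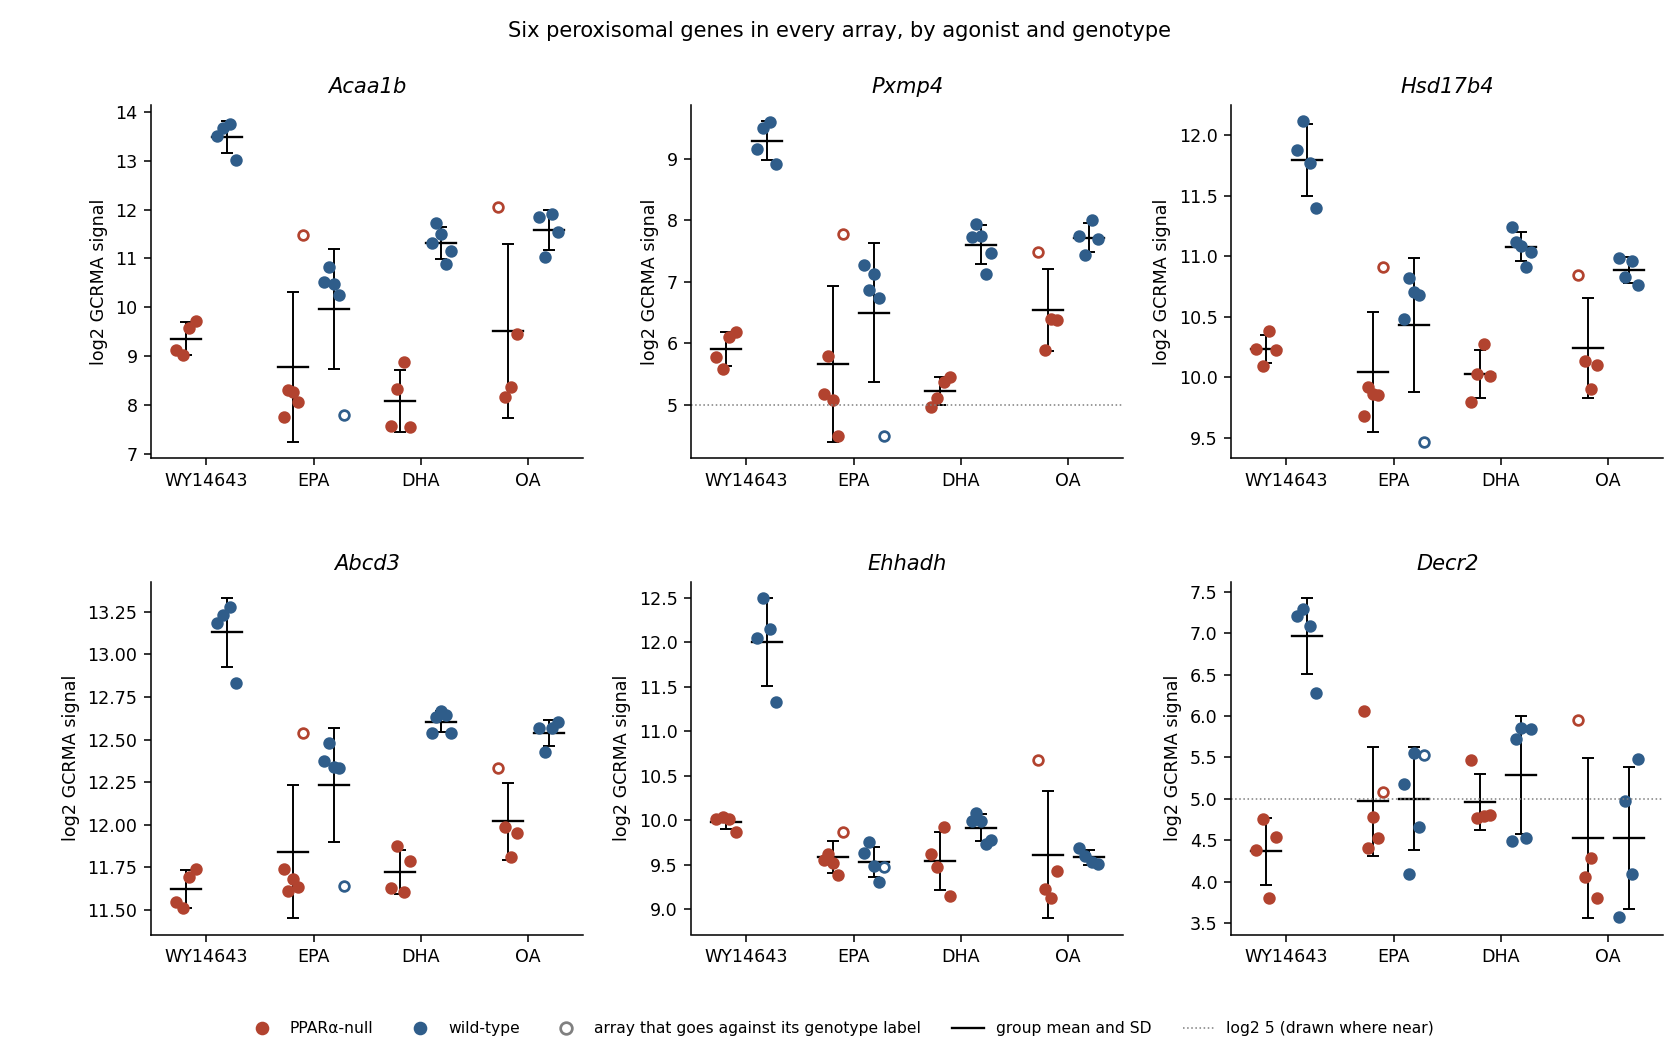
Log2 GCRMA signal of Acaa1b, Pxmp4, Hsd17b4, Abcd3, Ehhadh and Decr2 in each array, PPARα-null (red) left of wild-type (blue), with bars for mean and SD over all arrays of a group and open circles for the 3 arrays that go against their genotype labels. Apart from the open circles, every PPARα-null array lies under every wild-type array of the same agonist for the first 4 genes, whereas Ehhadh is apart in this way after WY14643 and OA and Decr2 after WY14643.

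The paralog Acaa1a showed a smaller gap, with 8.16, 8.32, 8.50 and 8.36 in PPARα-null mice, against 9.32, 9.59, 9.38 and 8.82 in wild-type mice after WY14643 (-0.94 ± 0.25, adjusted p = 0.0145). Its values after EPA were 7.63, 7.93, 7.97, 7.32 and 8.02 in PPARα-null mice, against 8.06, 8.05, 7.81, 7.67 and 7.00 in wild-type mice. After DHA they were 7.43, 7.71, 8.40 and 7.26 in PPARα-null mice, against 8.44, 8.44, 8.23, 7.88 and 7.75 in wild-type mice. After OA they were 8.40, 7.89, 7.09 and 7.80 in PPARα-null mice, against 7.74, 7.89, 8.09 and 7.88 in wild-type mice. The genotypes overlapped in these 3 pairs, and none of the differences (0.05, -0.45 and -0.11) was called. Leaving out the 3 arrays gave Acaa1a differences of -0.19 after EPA and -0.31 after OA, both without a call and still with overlap. The WY14643 call was lost without wild-type WY14643 replicate 2 (-0.84, adjusted p = 0.0740) or PPARα-null WY14643 replicate 1 (-0.88, adjusted p = 0.0501). Both Acaa1a probesets are of a class whose probes can also match related transcripts, 2 further probesets that match Acaa1a and Acaa1b alike were left out, and the share of Acaa1b RNA in the Acaa1a signal was not tested.

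The 2 bifunctional enzymes differed in the range of agonists. Hsd17b4, the D-bifunctional protein for branched chains and bile acid intermediates, was at 10.23, 10.10, 10.38 and 10.22 in PPARα-null mice, against 11.88, 12.12, 11.77 and 11.40 in wild-type mice after WY14643. Arrays after DHA gave 9.80, 10.03, 10.28 and 10.01 in PPARα-null mice, against 11.25, 11.12, 11.08, 10.91 and 11.04 in wild-type mice. The groups did not overlap in either pair, with differences of -1.56 ± 0.23 (2.95-fold, adjusted p = 1.76e-05) and -1.05 ± 0.22 (2.07-fold, adjusted p = 0.00449). Arrays after EPA gave 9.68, 9.92, 9.86, 9.85 and 10.91 in PPARα-null mice, against 10.48, 10.82, 10.70, 10.68 and 9.46 in wild-type mice. Arrays after OA gave 10.84, 10.14, 9.90 and 10.10 in PPARα-null mice, against 10.99, 10.83, 10.96 and 10.76 in wild-type mice. As for Acaa1b, the lipid groups overlapped through the 3 libraries: without them the differences were -0.85 after EPA (adjusted p = 1.59e-05; -0.39 with all arrays, adjusted p = 0.583) and -0.84 after OA (adjusted p = 1.12e-04; -0.64 with all arrays, adjusted p = 0.252). A second Hsd17b4 probeset fell by 1.95 after WY14643 and by 1.10 after DHA.

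Ehhadh, the L-bifunctional enzyme that handles straight-chain and dicarboxylic acids, read 10.02, 10.04, 10.01 and 9.87 in PPARα-null mice, against 12.05, 12.50, 12.16 and 11.33 in wild-type mice after WY14643, a 4.06-fold difference (-2.02 ± 0.22, adjusted p = 1.29e-07). After EPA it read 9.55, 9.63, 9.53, 9.39 and 9.87 in PPARα-null mice, against 9.63, 9.76, 9.49, 9.30 and 9.48 in wild-type mice. After DHA it read 9.62, 9.48, 9.93 and 9.15 in PPARα-null mice, against 9.99, 10.09, 9.99, 9.74 and 9.78 in wild-type mice. After OA it read 10.68, 9.23, 9.13 and 9.43 in PPARα-null mice, against 9.69, 9.60, 9.53 and 9.51 in wild-type mice. With all arrays the WY14643 pair of groups was the one pair apart for this gene, and the lipid differences were 0.06 ± 0.20 after EPA, -0.37 ± 0.21 after DHA and 0.03 ± 0.22 after OA, none of which was called. The overlap after OA came from the library labelled PPARα-null OA replicate 1. Without the 3 arrays the OA groups were apart, with a difference of -0.32 ± 0.17 (unadjusted p = 0.0766, adjusted p = 0.477 by limma), and the EPA groups overlapped, with a difference of -0.02 ± 0.16, so that both signs turned and neither difference was called.

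Acox2, the oxidase for branched chains and bile acid intermediates, was at 5.79, 5.57, 6.06 and 5.64 in PPARα-null mice, against 7.15, 7.89, 7.35 and 6.75 in wild-type mice after WY14643, a 2.86-fold difference (-1.52 ± 0.40, adjusted p = 0.0164). Its EPA values were 3.55, 4.34, 4.18, 3.50 and 5.50 in PPARα-null mice, against 5.38, 4.70, 5.43, 5.24 and 4.04 in wild-type mice. Its DHA values were 4.92, 4.61, 6.38 and 6.01 in PPARα-null mice, against 5.05, 5.94, 4.98, 4.75 and 4.78 in wild-type mice. Its OA values were 5.47, 4.48, 4.08 and 4.71 in PPARα-null mice, against 5.35, 4.37, 5.23 and 4.72 in wild-type mice. The lipid groups lay around the level of 5 and overlapped with all arrays, with a called difference of -1.30 after EPA without the 3 arrays (adjusted p = 0.0337; at least 1.14-fold, against a level of 32) and -0.74 with all arrays (adjusted p = 0.561). After OA the difference was -0.49 without the 3 arrays and -0.23 with all arrays, neither called. Without wild-type WY14643 replicate 2 the WY14643 difference of Acox2 was -1.32 and missed the threshold (adjusted p = 0.0878). Scp2, which encodes a thiolase for branched chains together with a sterol carrier protein, differed little in fold but beyond its spread after WY14643, at 12.69, 12.68, 12.68 and 12.68 in PPARα-null mice, against 13.01, 13.01, 12.98 and 12.94 in wild-type mice (1.23-fold, -0.30 ± 0.08, adjusted p = 0.0152). For Scp2 the EPA arrays read 12.53, 12.35, 12.38, 12.42 and 12.77 in PPARα-null mice, against 12.75, 12.47, 12.66, 12.51 and 12.44 in wild-type mice. Its DHA arrays read 12.58, 12.44, 12.61 and 12.47 in PPARα-null mice, against 12.66, 12.81, 12.60, 12.54 and 12.57 in wild-type mice. Its OA arrays read 12.85, 12.50, 12.69 and 12.70 in PPARα-null mice, against 12.89, 12.73, 12.67 and 12.85 in wild-type mice. These pairs overlapped, with differences of -0.08, -0.11 and -0.10, and without the 3 arrays they were -0.18 after EPA and -0.15 after OA, neither called. The probesets of Scp2 disagreed after WY14643: 1 other fell by 0.74 (adjusted p = 0.0163), 1 differed by -0.26 (adjusted p = 0.0692) and 1 by 0.02 (adjusted p = 0.971).

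Among the auxiliary enzymes, which handle double bonds and methyl branches, 2 of 4 were called after WY14643. Ech1, a dienoyl-CoA isomerase found in peroxisomes and mitochondria, was at 10.39, 10.63, 10.37 and 10.39 in PPARα-null mice, against 11.53, 11.64, 11.40 and 11.31 in wild-type mice after WY14643. Under DHA Ech1 read 10.48, 10.20, 10.45 and 10.26 in PPARα-null mice, against 11.02, 11.10, 10.78, 10.60 and 10.80 in wild-type mice. Neither pair overlapped, with differences of -1.03 ± 0.15 (adjusted p = 9.45e-06) and -0.51 ± 0.14 (adjusted p = 0.0224). The DHA call was lost without wild-type DHA replicate 1 or without PPARα-null DHA replicate 2 or 3 (adjusted p = 0.0505 to 0.0575). Under EPA Ech1 read 10.38, 10.37, 10.08, 10.16 and 10.81 in PPARα-null mice, against 10.90, 10.56, 11.04, 10.70 and 10.37 in wild-type mice. Under OA it read 10.96, 10.26, 10.63 and 10.45 in PPARα-null mice, against 10.95, 10.88, 10.80 and 11.08 in wild-type mice. The overlap again involved the 3 libraries, with differences of -0.55 (adjusted p = 0.00484) and -0.48 (adjusted p = 0.0428) without them, against -0.36 (adjusted p = 0.436) and -0.35 (adjusted p = 0.336) with all arrays.

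Decr2, the peroxisomal dienoyl-CoA reductase needed for polyunsaturated chains, stood highest in wild-type mice after WY14643. After WY14643 it was at 4.38, 4.76, 3.81 and 4.53 in PPARα-null mice, against 7.21, 7.29, 7.08 and 6.28 in wild-type mice, at least 3.91-fold lower in PPARα-null mice, whose mean stood under the level of 32 (-2.60 ± 0.44, adjusted p = 1.44e-04). After EPA it was at 6.06, 4.41, 4.78, 4.53 and 5.08 in PPARα-null mice, against 5.18, 4.09, 5.55, 4.66 and 5.53 in wild-type mice. After DHA it was at 5.47, 4.76, 4.79 and 4.81 in PPARα-null mice, against 4.49, 5.73, 5.86, 4.52 and 5.84 in wild-type mice. After OA it was at 5.95, 4.06, 4.29 and 3.80 in PPARα-null mice, against 3.58, 4.98, 4.09 and 5.48 in wild-type mice. Both genotypes lay around the level of 5 in the lipid groups, and none of those differences was called (-0.03, -0.33 and -0.01), nor were those without the 3 arrays (0.07 after EPA and -0.48 after OA). Pecr, an enoyl-CoA reductase, differed by -0.07 after WY14643 and Amacr, a racemase of methyl-branched acyl-CoAs, by -0.38, and neither was called after any agonist.

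α-Oxidation, which removes 1 carbon from chains such as phytanic acid that carry a methyl group in the way of β-oxidation, had no called difference between genotypes. Phyh, its hydroxylase, was at 12.21, 12.43, 12.37 and 12.30 in PPARα-null mice, against 12.19, 12.31, 12.20 and 12.03 in wild-type mice after WY14643. After EPA it was at 11.92, 11.76, 11.90, 11.62 and 12.05 in PPARα-null mice, against 11.89, 11.79, 11.85, 11.45 and 11.87 in wild-type mice. The DHA arrays gave 11.85, 11.66, 12.22 and 11.39 in PPARα-null mice, against 11.79, 12.04, 11.70, 11.67 and 11.43 in wild-type mice. The genotypes overlapped throughout, also after OA, with 11.91, 11.57, 11.66 and 11.85 in PPARα-null mice, against 11.79, 11.66, 11.71 and 11.73 in wild-type mice. The 4 differences of Phyh lay between 0.03 and 0.15, the last with a 95% interval of -0.11 to 0.40, and without the 3 arrays they were 0.06 after EPA and -0.03 after OA. Hacl1, the lyase of the pathway, differed by -0.39 after WY14643 (adjusted p = 0.399).

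Products of peroxisomal oxidation can leave as carnitine esters. In the group of acyl and CoA export, which holds Crot and Nudt diphosphatases, 2 of the 4 genes were called after WY14643. Crot, the carnitine octanoyltransferase, read 10.53, 10.45, 10.52 and 10.40 in PPARα-null mice, against 12.04, 12.19, 11.84 and 11.29 in wild-type mice after WY14643. After DHA it read 10.18, 10.27, 10.34 and 10.46 in PPARα-null mice, against 10.94, 10.89, 11.00, 10.87 and 11.02 in wild-type mice. The groups were apart in both, by -1.36 ± 0.17 (2.57-fold, adjusted p = 7.77e-07) and -0.63 ± 0.16 (1.55-fold, adjusted p = 0.0147), the second of which missed the threshold without PPARα-null DHA replicate 1 (adjusted p = 0.0510) or 3 (adjusted p = 0.0508). Crot after EPA was 9.94, 10.17, 10.08, 10.21 and 10.77 in PPARα-null mice, against 10.60, 10.76, 10.66, 10.57 and 10.09 in wild-type mice. Crot after OA was 10.85, 10.26, 9.96 and 10.33 in PPARα-null mice, against 10.78, 10.64, 10.61 and 10.54 in wild-type mice. Without the 3 libraries the EPA difference was -0.55 (adjusted p = 0.0084; -0.30 with all arrays, adjusted p = 0.566) and the OA difference -0.46 (adjusted p = 0.0665; -0.29 with all arrays), which did not pass.

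Nudt7, a peroxisomal CoA diphosphatase, was at 8.47, 8.41, 8.30 and 8.25 in PPARα-null mice, against 9.11, 8.88, 8.79 and 8.74 in wild-type mice after WY14643 (-0.52 ± 0.12, adjusted p = 0.00566). EPA gave 7.75, 8.15, 8.01, 7.95 and 8.25 in PPARα-null mice, against 8.07, 8.04, 8.22, 7.92 and 7.86 in wild-type mice. DHA gave 8.46, 8.15, 8.41 and 7.82 in PPARα-null mice, against 8.58, 8.61, 8.51, 8.22 and 8.22 in wild-type mice. OA gave 8.39, 8.24, 8.34 and 8.24 in PPARα-null mice, against 8.46, 8.26, 8.49 and 8.50 in wild-type mice. Under the 3 lipids the genotypes overlapped, with differences between -0.22 and 0.00, and without the 3 arrays of -0.09 after EPA and -0.15 after OA. A second probeset differed after WY14643 by -0.57 without passing (adjusted p = 0.130). Nudt12, an NADH diphosphatase, missed the threshold after WY14643 with all arrays (-0.48, adjusted p = 0.0542) and passed it without the 3 arrays (adjusted p = 0.0431). Nudt19, another CoA diphosphatase, differed by 0.09 and was not called.

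The other matrix enzymes held the one member that was higher in PPARα-null mice. Pipox, the oxidase of pipecolic acid and sarcosine, was at 7.33, 7.59, 7.53 and 7.65 in PPARα-null mice, against 6.78, 6.58, 6.33 and 6.85 in wild-type mice after WY14643. Pipox after DHA was 7.15, 6.56, 7.71 and 6.54 in PPARα-null mice, against 5.79, 6.50, 5.96, 5.99 and 5.90 in wild-type mice. The PPARα-null arrays lay above every wild-type array in both pairs, by 0.89 ± 0.24 (1.85-fold, adjusted p = 0.0203) and 0.96 ± 0.23 (1.95-fold, adjusted p = 0.0102). Pipox after EPA was 6.81, 6.53, 6.65, 6.17 and 6.52 in PPARα-null mice, against 6.54, 5.49, 6.44, 5.53 and 6.51 in wild-type mice. Pipox after OA was 6.81, 6.35, 6.49 and 6.32 in PPARα-null mice, against 5.31, 5.94, 6.06 and 6.08 in wild-type mice. The OA groups were apart and the EPA groups overlapped, with differences of 0.64 (adjusted p = 0.28) and 0.43 (adjusted p = 0.57) that were not called, and the library labelled PPARα-null OA replicate 1 had the highest value of its group. Leaving out the 3 arrays gave Pipox differences of 0.54 after EPA and 0.54 after OA, neither called. Leaving out PPARα-null DHA replicate 3 ended the DHA call (0.72, adjusted p = 0.102), and leaving out wild-type WY14643 replicate 2 or 3 or PPARα-null WY14643 replicate 3 or 4 ended the WY14643 call (adjusted p = 0.0522 to 0.0720).

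Lonp2, the protease that removes damaged and processes imported matrix proteins, was lower in PPARα-null mice after WY14643, at 9.67, 9.75, 9.77 and 9.69 in PPARα-null mice, against 10.60, 10.54, 10.51 and 10.17 in wild-type mice (-0.74 ± 0.11, adjusted p = 1.13e-05), and its second probeset fell by 0.93. For Lonp2 EPA gave 9.51, 9.44, 9.41, 9.42 and 9.85 in PPARα-null mice, against 9.73, 9.69, 9.49, 9.54 and 9.54 in wild-type mice. DHA gave 9.50, 9.67, 9.65 and 9.30 in PPARα-null mice, against 9.72, 9.90, 9.71, 9.68 and 9.60 in wild-type mice. The genotypes overlapped there, and likewise after OA, with 9.89, 9.52, 9.36 and 9.63 in PPARα-null mice, against 9.85, 9.68, 9.82 and 9.69 in wild-type mice. Without the 3 arrays the OA groups of Lonp2 were apart, and the differences were -0.17 after EPA and -0.26 after OA, against -0.07 and -0.16 with all arrays, none of them called. Ephx2, the soluble epoxide hydrolase, read 11.72, 11.94, 11.98 and 11.93 in PPARα-null mice, against 12.40, 12.74, 12.56 and 12.31 in wild-type mice after WY14643 (-0.61 ± 0.16, adjusted p = 0.0151). In EPA arrays Ephx2 read 11.17, 11.14, 11.25, 11.04 and 11.95 in PPARα-null mice, against 11.72, 11.38, 11.58, 11.27 and 11.10 in wild-type mice. In DHA arrays it read 11.43, 11.23, 11.81 and 11.47 in PPARα-null mice, against 11.74, 12.10, 11.98, 11.70 and 11.50 in wild-type mice. In both pairs the genotypes overlapped. In OA arrays Ephx2 read 12.14, 11.59, 11.69 and 11.94 in PPARα-null mice, against 12.11, 11.98, 12.03 and 12.05 in wild-type mice. None of the 3 lipid differences of Ephx2 was called (-0.10, -0.32 and -0.20). Without the 3 arrays the EPA and OA groups no longer overlapped, with differences of -0.34 (unadjusted p = 0.0093, adjusted p = 0.172 by limma) and -0.30 (unadjusted p = 0.0277, adjusted p = 0.333) that did not pass. Its WY14643 call was lost without wild-type WY14643 replicate 2 (adjusted p = 0.0817) or PPARα-null WY14643 replicate 1 (adjusted p = 0.0614). Cat, the catalase that removes hydrogen peroxide, missed the threshold after WY14643 with all arrays (-0.52, adjusted p = 0.0681) and passed without the 3 arrays (adjusted p = 0.0203).

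The first steps of ether lipid synthesis, which also take place in peroxisomes, had no called difference between genotypes. Gnpat, the acyltransferase that starts the pathway, was at 7.36, 7.40, 7.49 and 7.56 in PPARα-null mice, against 7.38, 7.37, 7.53 and 7.37 in wild-type mice after WY14643. EPA arrays of Gnpat gave 7.51, 7.49, 7.34, 7.54 and 7.48 in PPARα-null mice, against 7.32, 7.47, 7.59, 7.66 and 7.46 in wild-type mice. DHA arrays of Gnpat gave 7.54, 7.57, 7.24 and 7.68 in PPARα-null mice, against 7.37, 7.40, 7.49, 7.69 and 7.38 in wild-type mice. All pairs overlapped, the OA pair too, with 7.54, 7.63, 7.67 and 7.45 in PPARα-null mice, against 7.69, 7.40, 7.62 and 7.57 in wild-type mice. The difference after WY14643 was 0.04 with a 95% interval of -0.15 to 0.23. After EPA it was -0.03 with all arrays and -0.04 without the 3, and after OA -0.00209 and 0.00839. Agps, the alkyl synthase, and Far1, the fatty acyl-CoA reductase, differed by 0.12 (95% interval -0.16 to 0.40) and -0.15 (95% interval -0.76 to 0.46) and none of the 3 genes was called after any agonist.

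Of the 12 expressed Pex genes, 4 were lower in PPARα-null mice after WY14643 and 1 after DHA. Pex11a, which promotes elongation and division of peroxisomes, moved most. Its signal after WY14643 was 8.10, 8.28, 8.61 and 8.97 in PPARα-null mice, against 10.56, 10.33, 10.65 and 9.87 in wild-type mice. After DHA it was 9.49, 9.76, 8.67 and 10.08 in PPARα-null mice, against 10.03, 10.27, 10.45, 10.43 and 10.58 in wild-type mice. The WY14643 groups were well apart (-1.86 ± 0.22, 3.64-fold, adjusted p = 3.41e-07), whereas the DHA groups just overlapped (-0.85 ± 0.21, adjusted p = 0.0119). The DHA call was lost without PPARα-null DHA replicate 3 (-0.57, adjusted p = 0.123). After EPA Pex11a was at 9.68, 9.28, 9.56, 9.56 and 9.88 in PPARα-null mice, against 10.03, 9.85, 10.02, 9.92 and 9.60 in wild-type mice. After OA it was at 9.89, 9.74, 9.37 and 9.40 in PPARα-null mice, against 9.33, 9.72, 9.98 and 9.92 in wild-type mice. These pairs overlapped and were not called (-0.29 and -0.14), and without the 3 arrays the EPA groups were apart, with differences of -0.43 after EPA and -0.23 after OA that were not called either. A second probeset gave -1.87 after WY14643 and -0.94 after DHA.

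Pex19, the chaperone that brings membrane proteins to the organelle, read 8.43, 8.55, 8.29 and 8.32 in PPARα-null mice, against 9.16, 9.16, 9.07 and 8.96 in wild-type mice after WY14643 (-0.69 ± 0.15, adjusted p = 0.00351). Its EPA values were 8.31, 8.19, 7.98, 7.91 and 8.75 in PPARα-null mice, against 8.69, 8.47, 8.51, 8.54 and 8.20 in wild-type mice. DHA values of Pex19 were 8.29, 8.15, 8.43 and 7.96 in PPARα-null mice, against 8.78, 8.83, 8.42, 8.20 and 8.32 in wild-type mice. OA values of Pex19 were 8.73, 8.05, 8.20 and 8.35 in PPARα-null mice, against 8.63, 8.56, 8.53 and 8.63 in wild-type mice. The lipid pairs overlapped, and the EPA difference was -0.46 (adjusted p = 0.0476) without the 3 libraries, against -0.25 (adjusted p = 0.585) with all arrays. The OA difference of Pex19 was -0.39 without them, with the groups apart, and -0.26 with all arrays, neither called. Pex16, which acts early in membrane assembly, was at 8.46, 8.74, 8.61 and 8.62 in PPARα-null mice, against 9.14, 9.17, 8.98 and 9.02 in wild-type mice after WY14643 (-0.47 ± 0.10, adjusted p = 0.00348). For Pex16 EPA gave 8.73, 8.55, 8.40, 8.53 and 8.80 in PPARα-null mice, against 8.95, 8.64, 8.78, 8.57 and 8.71 in wild-type mice. DHA gave 8.78, 8.45, 8.59 and 8.71 in PPARα-null mice, against 8.75, 8.86, 8.74, 8.58 and 8.52 in wild-type mice for it. None of the lipid pairs of Pex16 was called, and its OA arrays read 8.85, 8.41, 8.44 and 8.35 in PPARα-null mice, against 8.61, 8.71, 8.64 and 8.73 in wild-type mice. The Pex16 differences were -0.13 after EPA and -0.16 after OA with all arrays, and without the 3 arrays they were -0.18 after EPA and -0.27 after OA, with the OA groups apart.

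Pex14, a docking protein for matrix import, had the smallest called difference of the Pex genes, at 6.91, 7.07, 6.95 and 6.81 in PPARα-null mice, against 7.35, 7.17, 7.44 and 7.27 in wild-type mice after WY14643 (-0.37 ± 0.11, adjusted p = 0.0331). That call was lost when any of 5 of the 8 arrays was left out, with adjusted p up to 0.121. After EPA Pex14 read 6.96, 7.00, 6.73, 6.87 and 6.89 in PPARα-null mice, against 6.86, 7.20, 6.85, 6.96 and 6.92 in wild-type mice. After DHA it read 6.90, 7.06, 6.79 and 6.90 in PPARα-null mice, against 7.21, 7.18, 6.93, 7.04 and 6.87 in wild-type mice. Those pairs overlapped, as did the OA pair, with 6.95, 6.99, 6.53 and 6.65 in PPARα-null mice, against 6.90, 7.14, 6.96 and 6.70 in wild-type mice. The Pex14 differences were -0.07 after EPA and -0.14 after OA, and without the 3 arrays -0.08 after EPA and -0.20 after OA. Pex11g, a relative of Pex11a, was called only without the 3 arrays, at -0.52 after WY14643 (adjusted p = 0.0415) and -0.69 after EPA (adjusted p = 0.0146). The remaining 7 expressed Pex genes, which are the import receptors Pex5 and Pex7, the docking partner Pex13, the membrane assembly factor Pex3 and the receptor export components Pex2, Pex6 and Pex26, were not called after any agonist, with differences after WY14643 between -0.53 (Pex5) and 0.13 (Pex6).

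The oxidation enzymes and the Pex genes were set side by side. After WY14643 8 of 12 oxidation enzymes were lower in PPARα-null mice, with a median difference of -0.98, and 4 of 12 Pex genes, with a median of -0.30, where the median of all genes was 0.06 and 3.76% of them were called lower. Acox2, Decr2, Hacl1 and Amacr are among these enzymes and entered through the groups in which they were high, whereas all 12 Pex genes passed in every group. Over the 8 enzymes that passed in every group, 6 were lower after WY14643 (median -0.98) and 3 after DHA (median -0.41), and the medians after EPA and OA were -0.01 and -0.10 with all arrays and -0.18 and -0.31 without the 3. After DHA 3 of the 12 oxidation enzymes (median -0.22) and 1 Pex gene (median -0.05) were lower, beside a median of 0.01 over all genes. After EPA and OA the medians of the oxidation enzymes were -0.07 and -0.06 and those of the Pex genes -0.06 and -0.03, and without the 3 arrays they were -0.18 and -0.31 for the oxidation enzymes and -0.08 and -0.04 for the Pex genes. These counts and medians describe the lists, and no test of one list against the other was made. Mitochondrial β-oxidation, the pathway most like the peroxisomal one, was set beside these lists with all arrays. There 14 of 17 genes were lower after WY14643 (median -1.06) and 10 after DHA (median -0.57). None was called after EPA or OA (7 and 8 at an unadjusted p under 0.05). The EPA and OA counts of this pathway include the 3 doubted arrays, with which 0% and 0.417% of all genes were called. No order of EPA or OA against DHA is drawn from them. The largest called differences of this pathway after WY14643 were those of Eci1, an enoyl-CoA isomerase (-2.64), and Slc25a20, the carnitine carrier (-2.48).

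**Figure D3:**
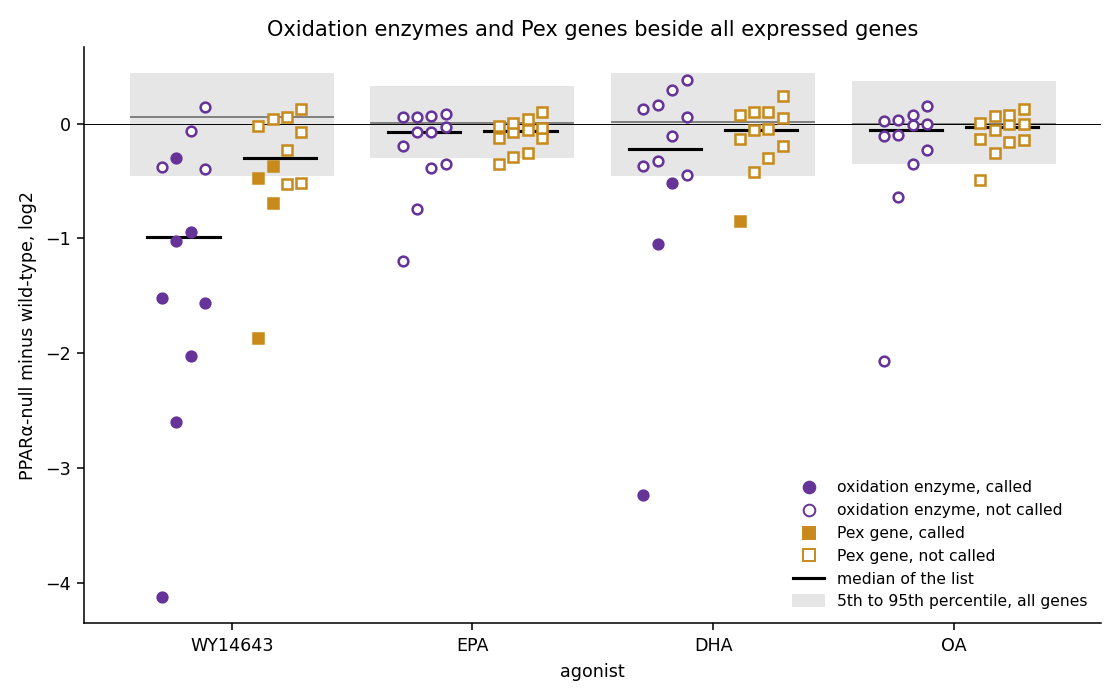
Difference PPARα-null minus wild-type (log2) of the 12 oxidation enzymes (circles) and 12 Pex genes (squares) after each agonist, filled where the adjusted p was under 0.05, with the median of each list as a black line and the 5th to 95th percentile of all 8626 genes in grey. After WY14643 the medians are -0.98 and -0.30, and after EPA and OA no point is filled.

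Within a genotype, WY14643 was set against OA. Without mice that received no agonist, a difference here cannot be assigned to WY14643 or to OA and its lipid load. In PPARα-null mice 7 members differed, 5 of them higher after WY14643, where 27.8% of all genes were called and 16.1% were higher, and 10 differed without the 3 arrays (27.1%). In wild-type mice 26 differed, 25 of them higher, against 30.6% of all genes and 14.5% higher. Of the oxidation enzymes 2 were called in PPARα-null mice and 10 in wild-type mice, and of the Pex genes 2 were called in PPARα-null mice and 5 in wild-type mice. Acox2, Decr2, Hacl1 and Amacr entered through groups that include wild-type WY14643, so that their part in the wild-type count was partly fixed by the filter. These counts in PPARα-null mice rest partly on the OA group: 4 members were called without PPARα-null OA replicate 3. In wild-type mice Ehhadh was 5.37-fold higher after WY14643 (2.42 ± 0.22, adjusted p = 1.15e-08). Acox2 was at least 4.87-fold higher (adjusted p = 6.88e-05) and Decr2 at least 3.91-fold (adjusted p = 1.57e-04) in these mice, in which the OA means of both stood under the level of 32. Acaa1b was -0.16 in PPARα-null mice (adjusted p = 0.889; 0.69 without the 3 arrays, adjusted p = 0.0872) and 1.90 in wild-type mice (adjusted p = 0.0335).

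Some members differed in PPARα-null mice as well. Phyh was higher after WY14643 by 0.58 in PPARα-null mice (adjusted p = 0.00132) and by 0.46 in wild-type mice (adjusted p = 0.00684). Pipox was higher after WY14643 by 1.03 in PPARα-null mice (adjusted p = 0.00242) and by 0.79 in wild-type mice (adjusted p = 0.0147). Cat, Acbd5 and Acox2 were also higher in both, by 0.57, 0.39 and 1.08 in PPARα-null mice and by 0.83, 0.81 and 2.37 in wild-type mice. Pex11a differed in opposite directions, lower after WY14643 in PPARα-null mice (-1.11 ± 0.22, adjusted p = 5.31e-04) and higher in wild-type mice (0.62 ± 0.22, adjusted p = 0.0334). Pex11g was likewise lower in PPARα-null mice (-0.68, adjusted p = 0.0146), while in wild-type mice its difference was -0.22 and was not called. Agps stood at -0.27 in PPARα-null mice, without a call, and was the one member lower in wild-type mice (-0.41, adjusted p = 0.0266).

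**Figure D4:**
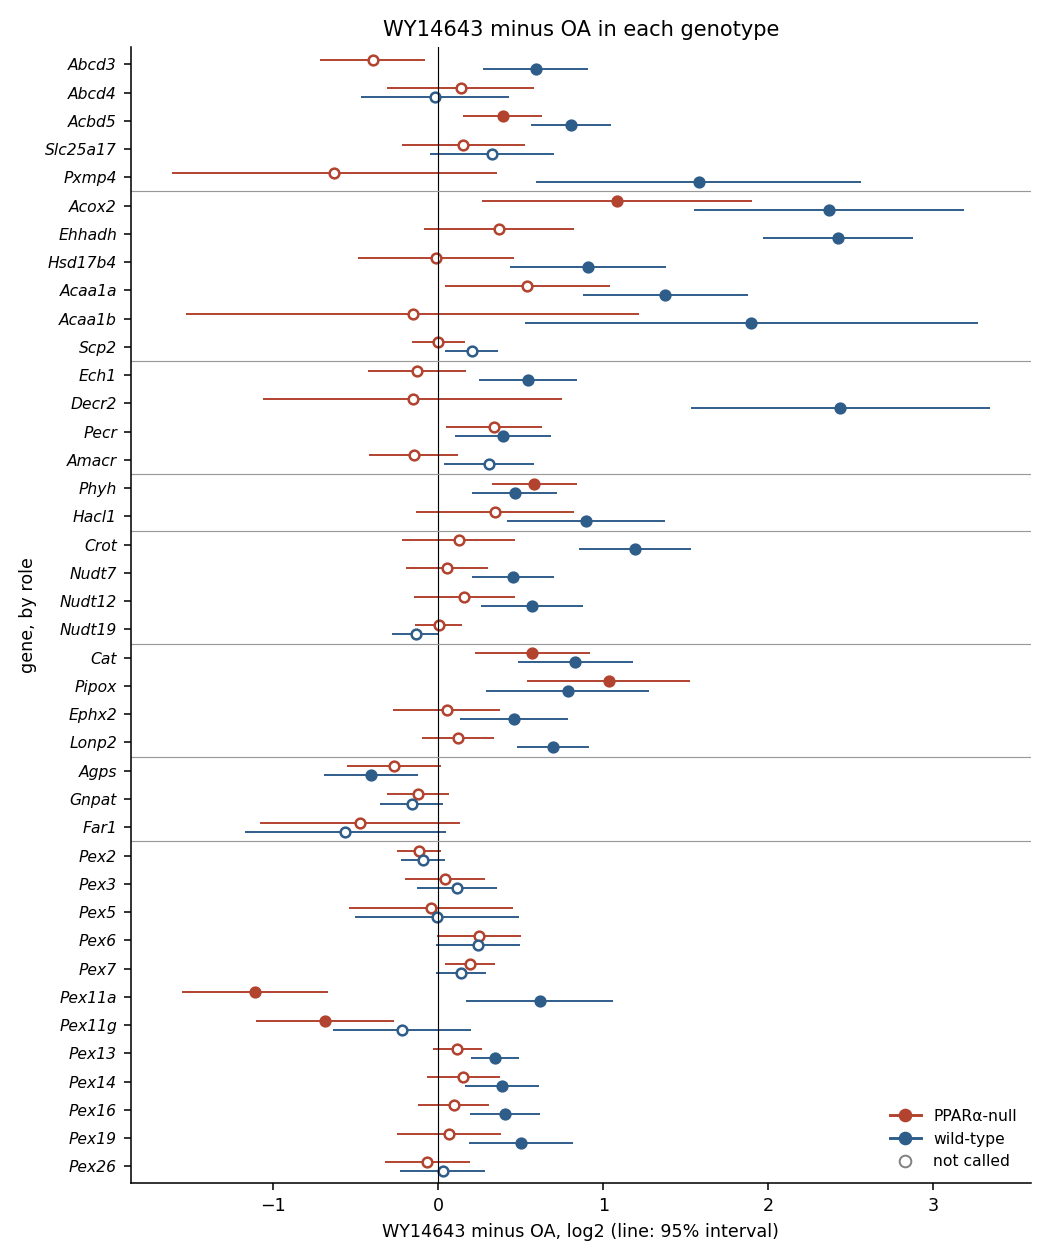
WY14643 minus OA (log2, with 95% intervals) for the 40 expressed members, PPARα-null (red) above wild-type (blue), filled where the adjusted p was under 0.05. In PPARα-null mice 5 members are higher after WY14643 and in wild-type mice 25, and Pex11a lies on opposite sides of 0.

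The difference between genotypes was itself compared between agonists. It was more negative after WY14643 than after OA for 5 members (1.15% of all genes called, 0.893% in this direction): Abcd3 by -0.99 ± 0.22, Ehhadh by -2.05 ± 0.31, Decr2 by -2.59 ± 0.63, Crot by -1.07 ± 0.24 and Pex11a by -1.72 ± 0.31. Decr2 passed the level only in wild-type mice after WY14643, EPA and DHA, so that its part here was partly fixed by the filter. Its OA means stood under the level, at 4.52 in PPARα-null mice and 4.53 in wild-type mice. Without the 3 arrays 6 members passed (1.14%), with Pxmp4 (-1.89, adjusted p = 7.76e-04) and Hsd17b4 (-0.72, adjusted p = 0.0229) added and Decr2 (-2.12, adjusted p = 0.0977) lost. Against EPA it was more negative after WY14643 for 8 members (1.16% of all genes, 1.07% in this direction), with Acbd5, Pxmp4 and Lonp2 beside those 5. This comparison includes the doubted EPA arrays. Without the 3 arrays the genotype difference after EPA was -1.86 for Pxmp4 (-0.83 with all arrays) and -0.71 for Abcd3 (-0.39). Both lay nearer the differences after WY14643. For Decr2 it was 0.07 (-0.03 with all arrays). The counts were 2 against OA without PPARα-null OA replicate 1 and 5 against EPA without wild-type WY14643 replicate 1. Against DHA only Ehhadh passed (-1.65 ± 0.31, adjusted p = 0.0061; 0.441% of all genes, 0.313% in this direction), and 6 members did without the 3 arrays (1.03%). Between the triacylglycerols no member passed with or without the 3 arrays. With all arrays 1 to 6 members had an unadjusted p under 0.05 and 0% of all genes were called, and without the 3 at most 0.0232% were.

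The 3 triacylglycerols, given in the same volume for the same time, can be compared with each other. OA is a monounsaturated acid, EPA and DHA are polyunsaturated omega-3 acids, and DHA is the longer of these with 1 more double bond. In each genotype 3 pairs were compared, 6 in all, each with p-values adjusted over all expressed probesets. EPA minus OA gave 0 members in PPARα-null mice (2.82% of all genes; 7 members at an unadjusted p under 0.05) and 2 in wild-type mice, both lower after EPA (7.04% of all genes, 3.88% lower). Without the 3 arrays 2.82% of all genes were called in PPARα-null mice and 6.01% in wild-type mice. Ephx2 stood at -0.53 in PPARα-null mice (95% interval -0.84 to -0.22, adjusted p = 0.0595), passing without the 3 arrays (adjusted p = 0.0103), and was lower after EPA than after OA in wild-type mice (-0.63, 95% interval -0.94 to -0.32, adjusted p = 0.00818). Nudt7 stood at -0.28 in PPARα-null mice (95% interval -0.52 to -0.04) and was lower in wild-type mice (-0.41, 95% interval -0.64 to -0.17, adjusted p = 0.0301) but did not pass without the 3 arrays (adjusted p = 0.0764).

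DHA minus OA gave 0 members in both genotypes (in PPARα-null mice 1.17% of all genes and 5 members at an unadjusted p under 0.05, in wild-type mice 4.08% and 3 members). EPA minus DHA also gave 0 members in both (in PPARα-null mice 0.614% and 2 members at an unadjusted p under 0.05, in wild-type mice 0.591% and 10 members). The intervals show how much could have been missed. For Acaa1b, EPA minus OA was -0.74 in PPARα-null mice (95% interval -2.04 to 0.56) and -1.61 in wild-type mice (-2.91 to -0.31), and the wild-type value passed without the 3 arrays (-1.07, adjusted p = 0.0173). DHA minus OA of the same gene was -1.43 (-2.81 to -0.06; -0.59 without the 3 arrays) in PPARα-null mice and -0.27 (-1.57 to 1.03) in wild-type mice. For Ehhadh all 6 differences between triacylglycerols lay between -0.38 and 0.33. For EPA minus DHA in wild-type mice the 10 members with an unadjusted p under 0.05, among them Hsd17b4 (-0.65), Pxmp4 (-1.10) and Pex11a (-0.47), all had negative differences, and without the library labelled wild-type EPA replicate 5, which lies in that comparison, and the other 2 the differences were -0.41, -0.60 and -0.40.

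WY14643 was also set against the polyunsaturated acids. Against EPA 17 members were called in PPARα-null mice (33.2% of all genes) and 30 in wild-type mice (40.7%), and against DHA 6 in PPARα-null mice (16.4%) and 27 in wild-type mice (36.3%). Of the 12 oxidation enzymes, 5 were higher after WY14643 than after EPA and 2 than after DHA in PPARα-null mice, where 18.5% and 9.23% of all genes were higher, and 12 in both comparisons in wild-type mice, where 19.8% and 17.6% were. Acox2, Decr2, Hacl1 and Amacr entered through groups that include wild-type WY14643, so that their higher values there were partly fixed by the filter. The 8 enzymes above the level in every group are among the 12. The count of members in PPARα-null mice against DHA was 1 without PPARα-null DHA replicate 4 and 12 without PPARα-null DHA replicate 3, and that against EPA was 10 without PPARα-null EPA replicate 4. In those mice Pex11a was lower after WY14643 against EPA (-1.10, adjusted p = 2.64e-04) and against DHA (-1.01, adjusted p = 0.00406), while in wild-type mice it was not called in either (0.47 and 0.00). These contrasts share the WY14643 arrays within each genotype.

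**Figure D5:**
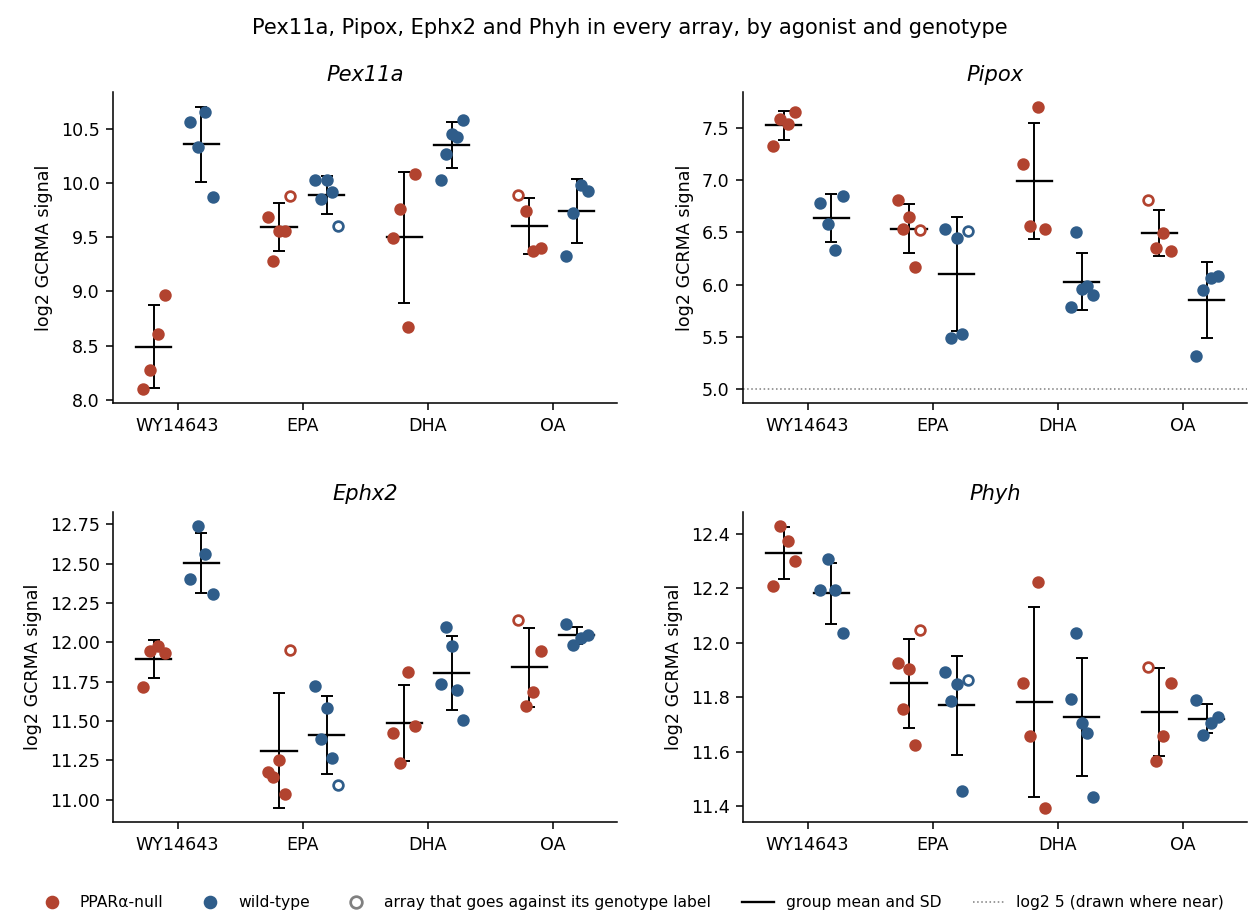
Log2 GCRMA signal of Pex11a, Pipox, Ephx2 and Phyh in each array, PPARα-null (red) left of wild-type (blue), with group means and SD and open circles for the 3 arrays that go against their labels. Pex11a is lowest in PPARα-null mice after WY14643, the Pipox mean of PPARα-null mice differs from that of wild-type mice by 0.43 to 0.96, and Phyh overlaps between genotypes throughout.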

How the data were processed

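Log2 expression values of 35 Affymetrix Mouse Genome arrays, 1 per mouse, were used as deposited: the authors normalized the probe signals with GCRMA, whose version is not given in the sources used here, so that background is already removed and arrays already share 1 distribution. Of 45101 probesets 64 controls were left out. Genes were named from the platform annotation, in which 34945 probesets have 1 gene, 932 several and 9160 none, and probesets with several genes named no gene. A probeset was kept where a group mean exceeded log2 5. For each gene the probeset of highest mean over all arrays stands, and the others are given where they disagree.

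An 8-group linear model with a variance trend was fitted to all 15384 expressed probesets with limma 3.58.1 in R 4.3.3, after testing on simulated data, and p-values were adjusted by the Benjamini-Hochberg method over those probesets in each contrast. An adjusted p under 0.05 was a call. Contrasts were PPARα-null minus wild-type after each of 4 agonists, the 6 agonist pairs within each genotype, and the differences between these. A group mean under log2 5 was set to a level of 32 for folds, which are then lower bounds. Values in every array are given for up to 4 members of a role group (up to 6 for the β-oxidation core and the Pex genes), those called between genotypes after WY14643 with the largest differences or, where none was called, the member of highest mean, 22 in all. Other members called between genotypes are named with their difference. The members and lists were chosen with earlier results of these data known. Alternatives were no filter, a filter at log2 6, no variance trend, quantile normalization, only the groups compared, any expressed probeset of a gene, median centring, the threshold of the study's methods (an unadjusted p under 0.01), a replicate block, each array left out, and the 3 doubted arrays left out. The number of arrays limits the precision. Promoter sequences come from RefSeq on GRCm38.p6. SE are from the fit, SD over arrays. Each array was taken as a separate mouse: the study describes its arrays as biological replicates, and the labels give a replicate number only.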

Additional observations from a re-analysis of the deposited data

Results flagged for a closer look

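Single arrays stood far from the rest of their group, by the gap to the nearest array over the range, in 20 of 176 groups of 4 or 5 arrays tested over the 22 named members, where chance gives about 1 in 20. Of these, 10 were replicate 5 of the EPA groups, which goes against its genotype label in both. The library labelled PPARα-null EPA replicate 5 read 12.54 for Abcd3, 11.49 for Acaa1b, 10.91 for Hsd17b4, 9.85 for Lonp2 and 11.95 for Ephx2, the highest of its group each time. The library labelled wild-type EPA replicate 5 read 4.50 for Pxmp4, 11.64 for Abcd3, 7.81 for Acaa1b, 9.46 for Hsd17b4 and 10.09 for Crot, the lowest of its group each time. The remaining PPARα-null arrays were WY14643 replicate 4 for Ehhadh (9.87) and replicate 2 for Ech1 (10.63), DHA replicate 3 for Acbd5 (10.49) and replicate 1 for Decr2 (5.47), and EPA replicate 3 for Gnpat (7.34). The remaining wild-type arrays were DHA replicate 4 for Acbd5 (10.54), DHA replicate 2 for Acox2 (5.94) and Pipox (6.50), EPA replicate 4 for Phyh (11.45) and WY14643 replicate 3 for Gnpat (7.53).

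The genotype difference itself changed between agonists by limma. WY14643 against OA gave -0.99 for Abcd3 (adjusted p = 0.0187), -2.05 for Ehhadh (adjusted p = 5.84e-04), -2.59 for Decr2 (adjusted p = 0.0310), -1.07 for Crot (adjusted p = 0.0162) and -1.72 for Pex11a (adjusted p = 0.00208). WY14643 against EPA gave -1.12 for Abcd3 (adjusted p = 0.00255), -0.61 for Acbd5 (adjusted p = 0.0484), -2.55 for Pxmp4 (adjusted p = 0.0410), -2.08 for Ehhadh (adjusted p = 9.90e-05), -2.57 for Decr2 (adjusted p = 0.0185), -1.06 for Crot (adjusted p = 0.00806), -0.66 for Lonp2 (adjusted p = 0.00888) and -1.57 for Pex11a (adjusted p = 0.00227). WY14643 against DHA gave -1.65 for Ehhadh (adjusted p = 0.00610). These contrasts share the WY14643 arrays. Those against EPA and OA include the 3 doubted arrays. Decr2 passed the level only in wild-type mice after WY14643, EPA and DHA, so that its values were partly fixed by the filter.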

How the results depend on the processing

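No called genotype difference changed sign under the alternatives run. Among differences that were not called, leaving out the 3 doubted arrays turned the sign for 5 of the 22 named members after EPA (Acbd5, Ehhadh, Acaa1a, Decr2 and Nudt7) and 3 after OA (Ehhadh, Phyh and Gnpat), to at most 0.187 and 0.321 in size and without a call. For the 20 members called after WY14643, 363 of 379 values kept their side of the threshold and 16 lost the call, for the 8 after DHA 151 of 160 and 9. Pex11g after EPA has no value with the filter at log2 6, which removes it. Each group holds 4 or 5 arrays, which limits these counts, and the cause of the changes was not tested. Called members are counted here. With no filter there were 1 for EPA minus OA in wild-type mice, and in PPARα-null mice 10 for WY14643 minus EPA and 3 for WY14643 minus DHA. EPA minus OA in PPARα-null mice gave 1 without the variance trend and 1 with median centring. With only the groups compared there were 1 for DHA minus OA in wild-type mice, 1 for WY14643 minus DHA in PPARα-null mice, and for the change in genotype difference 5 for WY14643 against EPA and 3 against DHA; Pex14 after WY14643 and Pipox and Pex11a after DHA lost their calls (adjusted p = 0.0600, 0.0804 and 0.116), and with no filter Pex14 did (adjusted p = 0.109).

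At an unadjusted p under 0.01 the genotypes differed for 1 member after EPA and 3 after OA. Within PPARα-null mice that threshold gave 2 for EPA minus OA, 1 for DHA minus OA and 1 for EPA minus DHA, within wild-type mice 5, 1 and 4 for these pairs, and for the change in genotype difference 9 for WY14643 against OA, 14 against EPA and 9 against DHA. Without the 3 doubted arrays there were 9 between genotypes after EPA and 5 after OA, within PPARα-null mice 3 for EPA minus OA, 1 for DHA minus OA, 1 for EPA minus DHA and 10 for WY14643 minus DHA, and 6 for the change of WY14643 against DHA.

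With 1 array left out at a time, the genotype counts ranged from 16 to 23 after WY14643 (16 without wild-type WY14643 replicate 2), 0 to 1 after EPA, 4 to 8 after DHA (4 without PPARα-null DHA replicate 3) and 0 to 1 after OA. Within PPARα-null mice they ranged from 4 to 9 for WY14643 minus OA, 0 to 3 for EPA minus OA, 0 to 1 for EPA minus DHA, 10 to 17 for WY14643 minus EPA and 1 to 12 for WY14643 minus DHA, and within wild-type mice from 1 to 3 for EPA minus OA, 0 to 1 for EPA minus DHA and 21 to 27 for WY14643 minus OA. The change in genotype difference gave 2 to 6 for WY14643 against OA, 5 to 9 against EPA and 1 to 3 against DHA.

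Whether the same replicate number in both genotypes paired the mice was not settled: correlations of same-numbered deviations ran from -0.443 to 0.552. After WY14643 they ran from 0.092 to 0.552, against -0.619 to 0.524 for arrays of different number. After OA they ran from -0.244 to -0.047, against -0.520 to 0.548. With the number as a replicate block the genotype counts were 21 after WY14643, 0 after EPA, 8 after DHA and 0 after OA, those for WY14643 minus OA 6 in PPARα-null mice and 27 in wild-type mice, and no count moved by over 1.5 times.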
